A study of Mus musculus with 24 samples.

Results

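The 39 genes of the mouse Hoxa, Hoxb, Hoxc and Hoxd clusters and the 3 Cdx genes, which lie outside the clusters, were followed across pluripotent cell lines and early embryo tissue. They were taken by symbol alone (Hoxa, Hoxb, Hoxc or Hoxd followed by a number, plus Cdx1, Cdx2 and Cdx4), with no measured value used, which gave 42 of the 20616 genes represented on the arrays: 11 Hoxa, 10 Hoxb, 9 Hoxc and 9 Hoxd genes and the Cdx genes. The study hybridised Cy3-labelled RNA to 24 Agilent arrays of 1 colour, and its 12 groups have 2 arrays apiece. Epiblast stem cells (EpiSCs) are pluripotent cells derived from the postimplantation epiblast, and mouse embryonic stem cells (mESCs) come from the earlier, preimplantation embryo. Of the EpiSC groups, lines BNa17, 129Ba1 and 129Ba2 were established with a Wnt inhibitor, line 129C1 was established by the original protocol and then treated with IWP2, an inhibitor of Wnt secretion, and the untreated lines made by the original protocol were Wt1 and 129C1. The mESC groups were line J1 treated with 2i, the name in common use for paired inhibitors of Mek and Gsk3, and the untreated lines J1 and R1. The embryo groups, dissected by hand, were E5.5 epiblast, E6.5 epiblast and E7.5 embryonic ectoderm. All cell lines had grown on feeder layers, from which the stem cells were parted before RNA was taken. The labels give no dose or duration for IWP2 or 2i, no strain and no number of embryos per sample. They do not say whether the arrays of a group came from separate cultures or dissections, so p-values measure only the spread between these arrays.

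A level is the log2 processed signal minus the 75th percentile of its array, so a level of 0 equals that percentile, and levels are compared along a gene and not between genes, since each probe has its own brightness. A gene was taken as measured in a group when Feature Extraction called it well above background on both arrays. Between 36.7% and 53.2% of probes were well above background on an array, the correlation of replicates lay between 0.966 and 0.989, and the number of arrays limits the precision. Replicate 1 of BNa17 was the dimmest array, with a 75th percentile of 69.3 signal units against a highest value of 253. The 5 pluripotency markers (Pou5f1, Sox2, Nanog, Sall4 and Utf1) were measured in every group, and the summed linear level of 5 naive markers was 263 to 571 on mESC arrays and 0.669 to 5.51 on all others. The arrays lay on 6 slides. Wt1 and treated 129C1 shared a slide, untreated 129C1 shared one with the 3 Wnt inhibitor lines, E5.5 and E6.5 shared one, E7.5 shared one with J1, and R1 and J1 with 2i each had their own.

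Hox genes encode homeodomain transcription factors that give cells their position along the head-to-tail axis. Within a cluster they lie in the order in which they come on in time and space: genes of low paralogue number act first and in the hindbrain, those of middle number in the neck and trunk, and those of high number last, in the tail end and limbs. Cdx genes encode related homeodomain factors of the posterior embryo that act downstream of Wnt and Fgf signals and activate central Hox genes, and retinoic acid activates the low-numbered end. In pluripotent cells the clusters are a classic example of genes held silent by Polycomb proteins. Here the Hox genes were read as paralogues 1 to 3 (8 genes), 4 to 8 (15 genes) and 9 to 13 (16 genes).

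RefSeq promoters (build GRCm38.p6, the 250 bases before the transcript start) were taken for 24 of the 42 members, with 26 promoters in all. Member promoters on 1 chromosome were left out, while the set of all promoters kept that chromosome, and Cdx1 is not among the 24. The median GC content of the 26 promoters was 56.8%, against 52.4% over 32851 promoters of 27025 genes, and their median number of CpG was 12.5, against 6. A Cdx site (TTTATNA, both strands) lay in 6 of 26 member promoters, or 23.1%, against 12.8% of all promoters, and a joint Pbx and Hox site (TGATNNAT, both strands) in 4 of 26, or 15.4%, against 7.68%. A Tcf site (CTTTGAT, both strands) lay in 1 of 26, or 3.85%, against 3.21%, and a retinoic acid response element of the DR5 type (both strands) lay in 0 of 26, against 0.198%. These matches are descriptions of letters, not binding sites. The promoters below belong to 4 genes whose array pattern differed: Hoxa7 was measured in all 12 groups, Hoxa2 in every EpiSC group but untreated 129C1 and at E7.5, Hoxb1 in Wt1 and at E7.5, and Hoxb8 at E7.5. Capitals mark matches to the Cdx site in Hoxa7, to the Pbx and Hox site in Hoxa2 and Hoxb1, and to both in Hoxb8. They were read 5′ to 3′ in the direction of the gene, Hoxa7 from chr6:52218574-52218823 (minus strand), Hoxa2 from chr6:52164832-52165081 (minus strand), Hoxb1 from chr11:96365508-96365757 (plus strand) and Hoxb8 from chr11:96281655-96281904 (plus strand).
Hoxa7: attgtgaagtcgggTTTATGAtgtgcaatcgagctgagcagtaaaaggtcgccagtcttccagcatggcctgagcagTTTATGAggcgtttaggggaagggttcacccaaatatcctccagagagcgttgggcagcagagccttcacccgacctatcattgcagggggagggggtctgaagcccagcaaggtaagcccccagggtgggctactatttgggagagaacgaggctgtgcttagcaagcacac
Hoxa2: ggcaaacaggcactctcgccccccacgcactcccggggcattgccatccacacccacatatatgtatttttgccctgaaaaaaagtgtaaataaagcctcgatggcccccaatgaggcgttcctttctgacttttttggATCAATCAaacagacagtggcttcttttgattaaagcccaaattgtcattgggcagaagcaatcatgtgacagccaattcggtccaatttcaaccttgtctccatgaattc
Hoxb1: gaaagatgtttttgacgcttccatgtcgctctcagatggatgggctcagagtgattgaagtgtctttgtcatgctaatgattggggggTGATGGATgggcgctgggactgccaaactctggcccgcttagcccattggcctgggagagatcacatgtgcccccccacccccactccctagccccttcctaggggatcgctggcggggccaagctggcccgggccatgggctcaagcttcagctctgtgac
Hoxb8: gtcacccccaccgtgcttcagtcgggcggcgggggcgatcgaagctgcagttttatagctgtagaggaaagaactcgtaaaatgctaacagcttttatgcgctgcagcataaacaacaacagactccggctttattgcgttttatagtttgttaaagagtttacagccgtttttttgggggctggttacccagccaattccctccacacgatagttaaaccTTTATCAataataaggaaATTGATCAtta

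Of the 42 members, 34 were measured in at least 1 group and 8 in none. EpiSC line 129Ba1 had the most, with 27 members, and epiblast at E5.5 had the fewest, with 2 (Hoxa7 and Cdx1). The other EpiSC groups had 13 in BNa17, 12 in 129Ba2, 12 in 129C1 with IWP2, 12 in Wt1 and 5 in untreated 129C1. The 5 in untreated 129C1 were Hoxa6, Hoxa7, Hoxb6, Hoxc6 and Hoxc12. In the embryo the count was 2 at E5.5, 10 at E6.5 and 17 at E7.5, and in mESCs it was 8 in J1 with 2i, 9 in J1 and 7 in R1. As a share of the members this ran from 4.76% at E5.5 to 64.3% in 129Ba1, while 54.9% to 65.3% of all genes were measured in each group, so only 129Ba1 came near the share of all genes.

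By paralogue class, the E7.5 ectoderm held 7 of the 8 genes of paralogues 1 to 3, the EpiSC groups other than untreated 129C1 held 4 or 5, untreated 129C1 and E5.5 held 0, and each mESC group held 1. Genes of paralogues 9 to 13 were measured mainly in 129Ba1, with 10 of 16, against 0 to 3 in every other group. Hoxa7 was the 1 member measured in all 12 groups, and Hoxa7, Hoxb6, Hoxc6 and Hoxc12 were the 4 measured in all 5 untreated EpiSC lines. In no embryo group were 22 members measured, and 14 were measured in none of the 5 lines. E7.5 shared 12 of its 17 measured members with 129Ba1, which are 12 of the 27 in that line, and 9 of its 17 with Wt1, which are 9 of the 12 in that line.

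**Figure D1:**
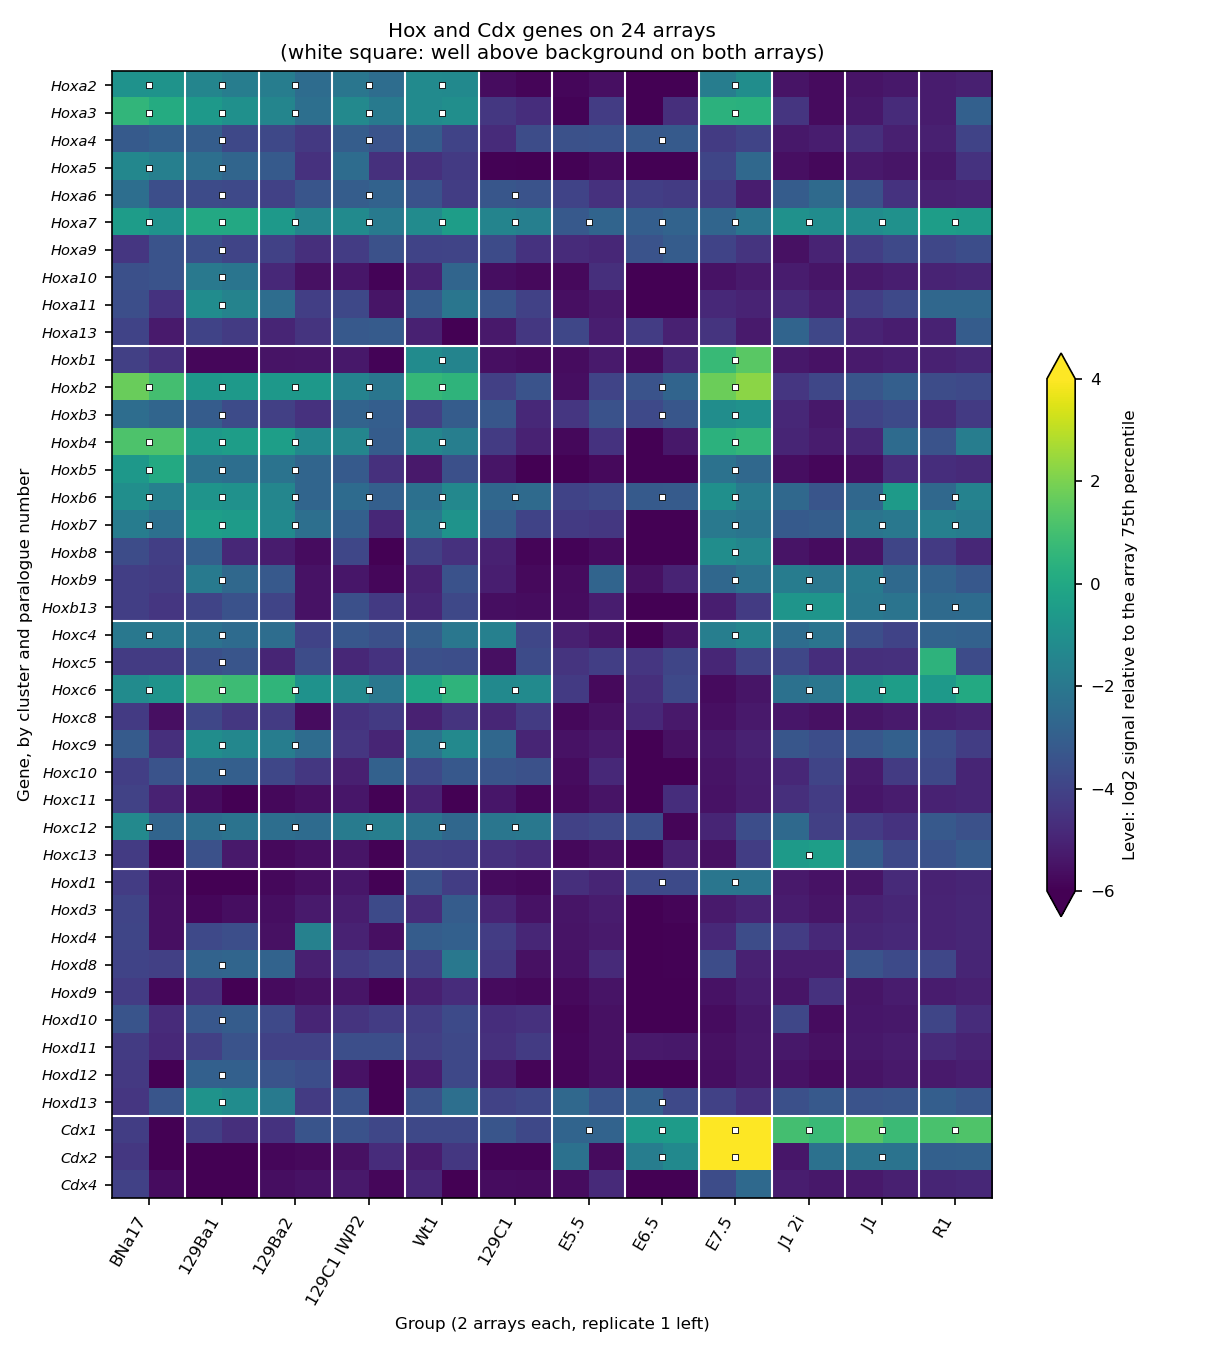
Level of 41 Hox and Cdx genes (down the page, by cluster and paralogue number) on each of the 24 arrays (across), as log2 signal relative to the 75th percentile of the array; a white square marks genes well above background on both arrays of a group. Colours compare along a gene, not between genes. Untreated 129C1 and E5.5 hold no white square among paralogues 1 to 3, while E7.5 holds 6 and 129Ba1 carries most of the squares among paralogues 9 to 13.

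Feeder cells are fibroblasts, which carry Hox transcripts of their own, so 16 fibroblast markers were summed on each array. All 16 were measured in each EpiSC group, 14 in J1 with 2i and 15 in J1 and in R1, and 5, 6 and 7 at E5.5, E6.5 and E7.5. The summed linear level was highest in 129Ba1, at 344 and 278, and was 154 and 214 in Wt1, 186 and 97.2 in 129Ba2, 96.0 and 63.7 in 129C1 with IWP2, 81.7 and 96.4 in BNa17 and 57.1 and 70.7 in untreated 129C1. It was 51.8 and 74.7 in J1 with 2i, 48.1 and 74.4 in J1, 87.5 and 87.0 in R1, and 4.08 to 8.21 on the 6 embryo arrays. 129Ba1 thus had both the most members measured and the highest fibroblast sum. On the 6 mESC arrays, whose sums overlapped those of BNa17 and of both 129C1 groups, Hoxa2, Hoxa3, Hoxb1 and Hoxb2 were never well above background. Hoxa7 and Hoxc6 were measured in every mESC group, and each of these groups held 1 gene of paralogues 1 to 3. Hoxb1 was also above background on no array of BNa17 or of either 129C1 group. The part of feeder RNA in any of these Hox levels was not tested. In these bulk samples fewer cells of a type and less RNA per cell cannot be told apart.

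**Figure D2:**
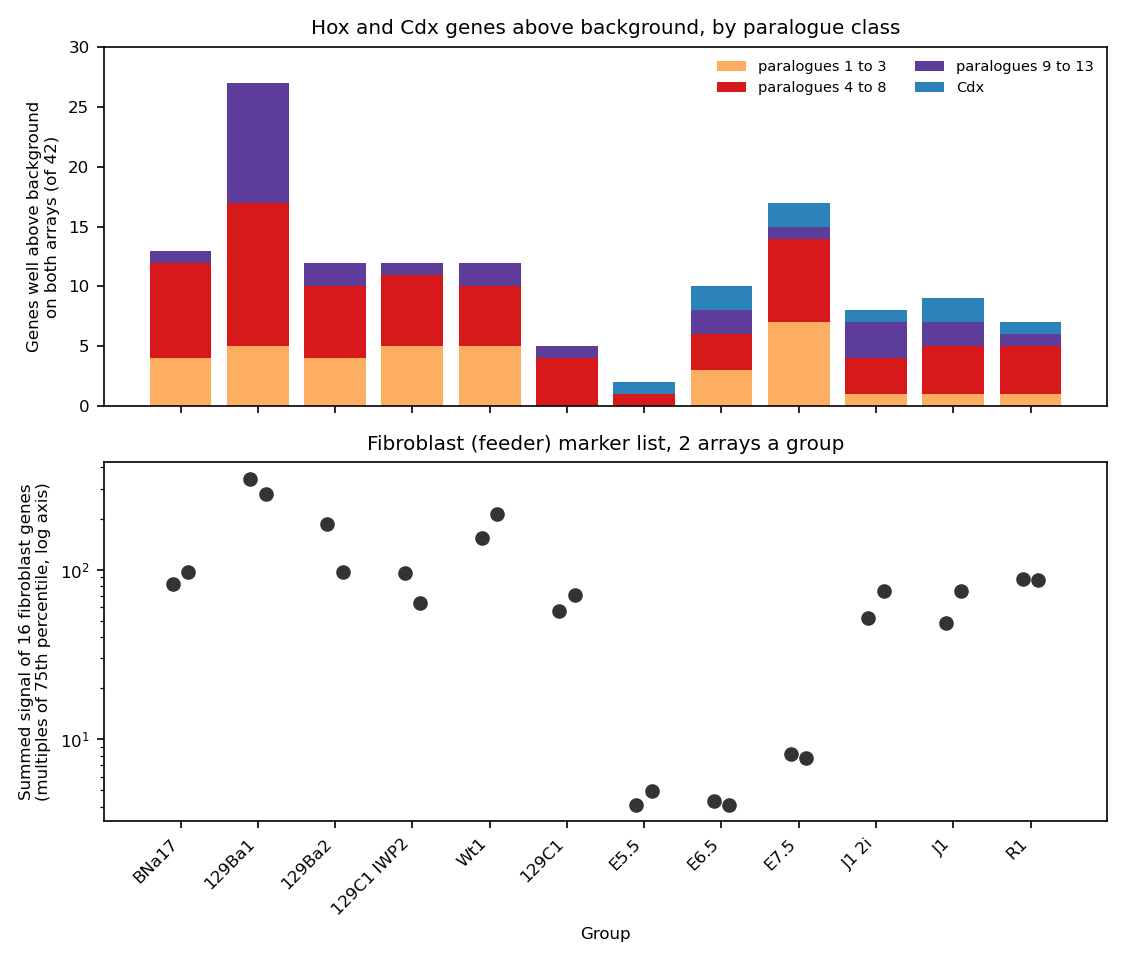
Top, the number of Hox and Cdx genes well above background on both arrays of each of the 12 groups, stacked by paralogue class; bottom, the summed linear level of the 16 fibroblast markers on each array, on a log axis. 129Ba1 has the highest bar (27 genes) and the highest sums (344 and 278), and the embryo groups combine sums of 4.08 to 8.21 with counts of 2, 10 and 17.

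Lines established with a Wnt inhibitor were set against the 2 lines of the original protocol, with each line as 1 value, to ask whether the way of establishment went with a different Hox state. No member was called at an adjusted p below 0.05 and at least 2-fold: 0 of 28 tested in limma, against 1.57% of all 14043 genes (0.534% higher and 1.04% lower). Of the 28, 3 had an unadjusted p below 0.05, a smaller share than the 17.3% of all genes. The 3 were Hoxb5, 3.37 ± 0.77 log2 higher in the Wnt inhibitor lines (SE, unadjusted p 0.00551, adjusted p 0.124), Hoxb4, 3.07 ± 1.04 higher (adjusted p 0.234), and Hoxa5, 2.57 ± 0.78 higher (adjusted p 0.199). The median difference of the members was 0.53, against 0.07 over all genes.

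The 2 original-protocol lines were far apart in these genes, which the line values show. Hoxb2 had levels of 1.71 and 1.02 in BNa17, -0.67 and -0.64 in 129Ba1 and -0.65 and -0.68 in 129Ba2, against 0.66 and 0.50 in Wt1 and -4.09 and -3.44 in 129C1. Hoxb4 had 1.20 and 1.19 in BNa17, -0.60 and -0.42 in 129Ba1 and -0.38 and -1.27 in 129Ba2, against -1.41 and -1.74 in Wt1 and -4.27 and -5.03 in 129C1. Wt1 lay among the Wnt inhibitor lines for Hoxb2 and below all of them for Hoxb4, and 129C1 was the lowest line for both, with no array above background. Hoxb1, a hindbrain gene, was -1.19 and -1.49 in Wt1 and well above background on no array of the other 4 lines. Leaving out Wt1 gave 2 calls, among them Hoxa2 (4.22 higher, adjusted p 0.0345), and leaving out 129C1 gave 1, Hoxb1 (3.89 lower, log2 difference -3.89, adjusted p 0.0363).

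The 3 Wnt inhibitor lines shared their slide with 129C1 and not with Wt1. Against 129C1 alone, within that slide, 14 of 34 members rose and 0 fell in the Wnt inhibitor lines, against 5.85% of all genes called higher, 5.34% called lower and 11.2% in all. The largest differences were at the low-numbered end and the middle of the Hoxa and Hoxb clusters: Hoxb4 was at least 16.3-fold higher, Hoxb2 at least 13.3-fold, Hoxa3 at least 9.78-fold, Hoxa2 at least 5.79-fold and Hoxb5 at least 5.17-fold. Such a bound is given where no array of the lower side was well above background. It sets the mean of the higher side against that of the lower side. Lower-side values fainter than the faintest signal well above background on their array were first raised to that signal. Hoxa5, Hoxa10, Hoxb7, Hoxb13, Hoxc9, Hoxd12, Hoxc6 and Hoxa7 rose by less, with Hoxa7 at 1.03 ± 0.25. Of the Wnt inhibitor arrays, Hoxb13 was above background on 1, Hoxd12 on 2 and Hoxa10 on 3. Hoxd12 and Hoxa10 were measured in 129Ba1 alone, the line with the highest fibroblast sum. Hoxc9 (adjusted p 0.0489) and Hoxc6 (adjusted p 0.0459) lay just below the threshold. This comparison rests on 129C1 as its single original-protocol line. It took single arrays and not lines as its unit, so its calls do not allow for the spread between lines. All 6 definitive endoderm markers tested fell in the comparison of 3 lines with 2 (median -6.08), their summed level being 0.302 to 0.504 on the Wnt inhibitor arrays, against 38.0 and 56.1 in Wt1 and 99.7 and 83.7 in 129C1, and their part in the Hox differences was not tested. Of genes known to act on the clusters, 2 of 17 retinoic acid genes tested fell in the comparison of 3 lines with 2, Cyp26a1 (-7.14, adjusted p 0.0094), which breaks retinoic acid down, and Stra6 (-4.63), and so did 1 of 14 posterior growth zone genes, Sp5 (-6.90), a Wnt target, while 0 of 9 Pbx, Meis and Pknox cofactors changed.

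**Figure D3:**
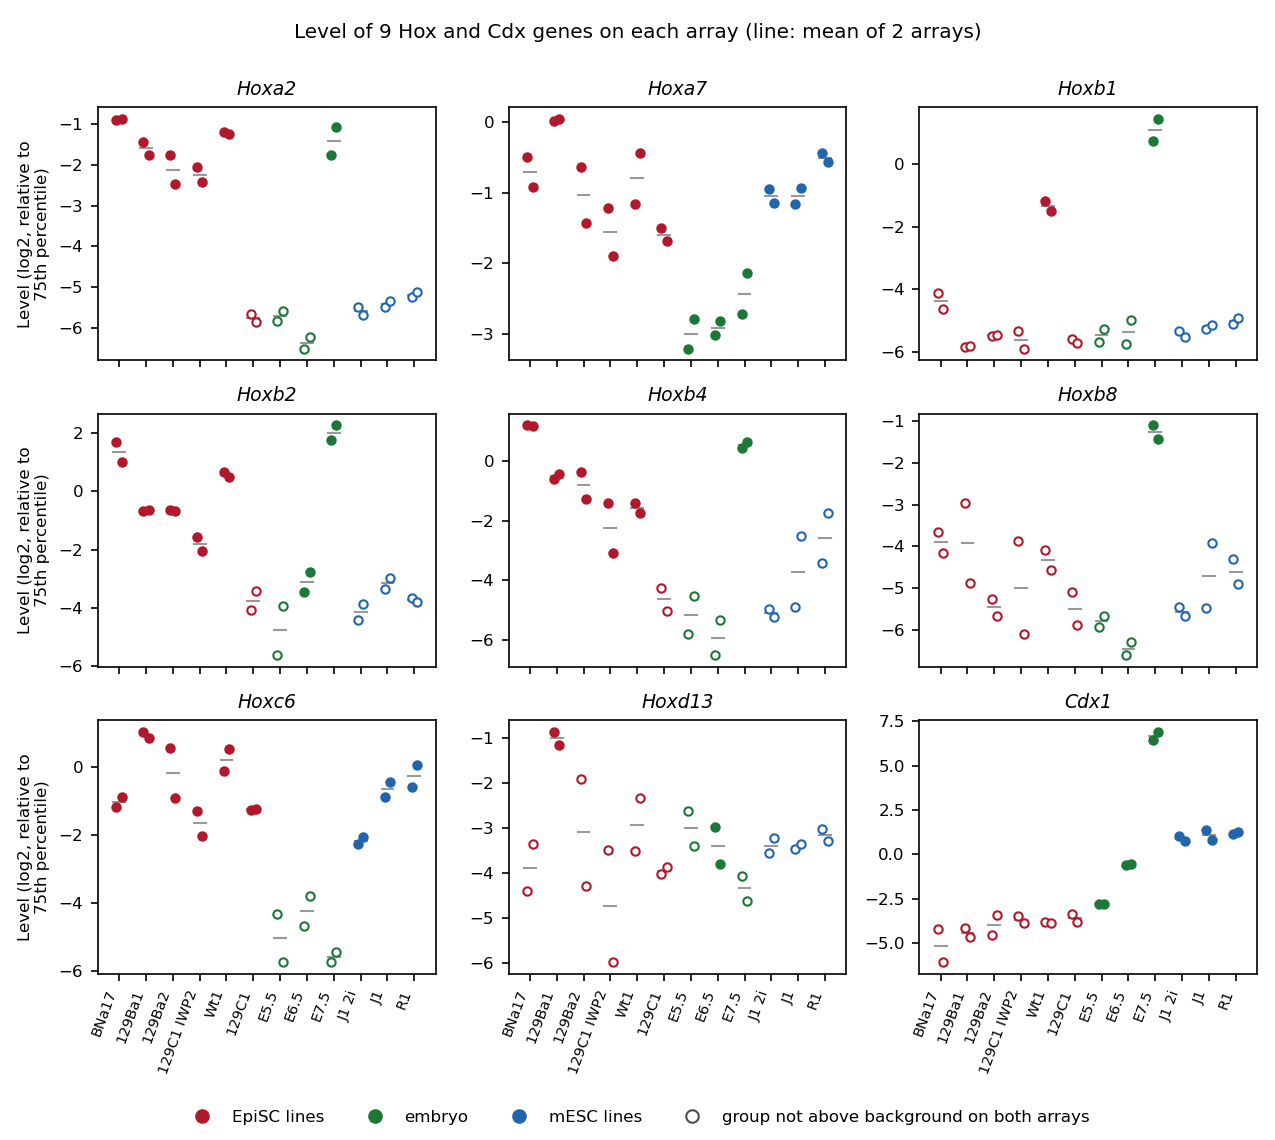
Level of 9 genes on each array by group, as log2 signal relative to the 75th percentile of the array; filled points belong to groups with both arrays well above background, open points to the others, and lines give group means. Hoxa2 in untreated 129C1 lies near the bottom, below the 4 other EpiSC lines and below 129C1 with IWP2, and Cdx1 at E7.5 (6.45 and 6.91) stands above every other group.

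In line 129C1, IWP2 treatment was set against no treatment to ask what blocking Wnt secretion does in cells that are already established. Genes at the low-numbered end of Hoxa and Hoxb were higher with IWP2: 6 of 34 members rose, or 17.6%, and 0 fell, against 1.39% of all genes called higher, 2.49% called lower and 3.88% in all. Hoxa2 had levels of -2.06 and -2.43 with IWP2, against -5.67 and -5.85 without. Both treated arrays lay above both untreated ones, and no untreated array was above background. The gene was at least 3.54-fold higher (3.51 ± 0.24, adjusted p 6.96e-07), but it was not called with normexp background correction.

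Hoxa3 (-1.29 and -1.92 with IWP2, against -4.39 and -4.68 without) rose at least 5.51-fold, with an adjusted p of 0.0257. Hoxb2 (-1.57 and -2.06 with IWP2, against -4.09 and -3.44 without) rose at least 3.73-fold, with an adjusted p of 0.014. Hoxa5 rose at least 1.44-fold (adjusted p 0.0202) with 1 of 2 treated arrays above background, and Hoxb13, at a log2 difference of 1.71, was above background on neither side. With normexp none of Hoxa3, Hoxb2, Hoxa5 and Hoxb13 was called. The call of Hoxa3 was lost without any 1 of the 4 arrays (adjusted p 0.076 to 0.15). That of Hoxa5 was lost without IWP2 replicate 1 (0.187) or either 129C1 replicate (0.112 and 0.109), that of Hoxb13 without the same 3 arrays (0.204, 0.156 and 0.162), and that of Hoxb2 without IWP2 replicate 1 (0.0949) or 129C1 replicate 1 (0.157).

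Hoxb4 (2.39, adjusted p 0.0839) and Hoxb5 (1.81, adjusted p 0.0572) did not pass. Of the 5 genes already measured in 129C1, none was called. Hoxa7 differed by 0.04 (adjusted p 0.977), Hoxc6 by -0.41 (adjusted p 0.756), and Hoxa6 had means of -2.95 with IWP2 and -3.38 without. Measured members numbered 12 with IWP2 and 5 without, and the 12 included all 5, with Hoxa2, Hoxa3, Hoxa4, Hoxb2, Hoxb3 and Hoxb4 among those gained. The gain of Hoxb3 rests on 1 of its 2 probes. The second was at -3.77 and -3.96 with IWP2 and -5.70 and -5.93 without, with no array above background. Paralogues 1 to 3 had 4 of 7 tested called and a median difference of 1.95, against 0.43 for paralogues 4 to 8 and -0.19 for paralogues 9 to 13. Arrays with and without IWP2 were not on the same slide, so treatment and slide cannot be told apart.

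Among regulators, the cofactors Meis1 (1.88 ± 0.43, adjusted p 0.0166) and Pknox2 (2.26 ± 0.33, adjusted p 0.000547) rose, as 2 of 9, while 0 of 25 Polycomb genes and 0 of 9 Trithorax genes were called. Of 17 retinoic acid genes, Crabp2, which binds retinoic acid in the cell, rose (2.01), and Cyp26a1 (-6.38 ± 0.76, adjusted p 8.62e-05) was among those that fell. Of 14 genes of the posterior growth zone and its Wnt and Fgf signals, the primitive streak factor T (-5.03), Sp5 (-4.92), Fgf8 (-3.58) and Wnt3 (-2.41) fell and Sp8 rose (2.26). Of 11 genes of anterior and hindbrain patterning, Gbx2, which marks the anterior hindbrain, rose (4.13), as did Irx2, and 5 fell, with Hesx1 at -5.64, Lhx1 at -3.83, Rax at -2.26 and the forebrain gene Otx2 at -1.04. All 6 definitive endoderm markers tested fell, their summed level being 0.350 and 0.267 with IWP2, against 99.7 and 83.7 without, and their part in the Hox result was not tested. Of the 16 fibroblast markers 1 rose, Dcn.

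Wt1 differed from 129C1, the other line of the original protocol, in 10 of 34 members, or 29.4%, all higher in Wt1, against 5.74% of all genes called higher, 4.82% called lower and 10.6% in all. As in the IWP2 comparison, which has the same untreated 129C1 arrays as its baseline, the largest differences were in paralogues 1 to 3, where 6 of 7 tested rose with a median of 4.31. Hoxa2 was -1.20 and -1.25 in Wt1, against -5.67 and -5.85 in 129C1. Hoxb2 was 0.66 and 0.50 in Wt1, against -4.09 and -3.44 in 129C1. For both genes all Wt1 values lay above all 129C1 values. The differences were at least 19.6-fold for Hoxb2 (4.34 ± 0.43), 7.65-fold for Hoxa3 (3.40 ± 0.72), 7.17-fold for Hoxa2 (4.53 ± 0.24) and 6.63-fold for Hoxb1 (4.31 ± 0.28, adjusted p 1.11e-07). Hoxb1 was not among the members that rose with IWP2, where it was at -5.34 and -5.90 and below background.

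Hoxb4 (3.08, adjusted p 0.00964), Hoxb7 (2.09), Hoxc9 (2.08) and Hoxa10 (1.78) also rose in Wt1, and Hoxd1 (1.90) was above background on neither side. Hoxb4 lost its call without Wt1 replicate 1 (adjusted p 0.0592) or 129C1 replicate 2 (0.0897), Hoxb7 without Wt1 replicate 2 (0.119) or 129C1 replicate 2 (0.124), and Hoxc9 without the same 2 arrays (0.178, and 0.338 at a log2 difference of 0.93). Hoxa10 lost it without Wt1 replicate 2 (0.334, at a log2 difference of 0.62) or either 129C1 replicate (0.0988 and 0.123). Fibroblast markers moved with these genes, with 9 of 16 higher in Wt1 and sums of 154 and 214 in Wt1, against 57.1 and 70.7 in 129C1, and their part in the Hox result was not tested. The 2 lines were on different slides, so line and slide cannot be told apart.

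Meis1 rose by the most of the 9 cofactors (5.49 ± 0.43, adjusted p 7.92e-07), with Pknox2 (1.84) and Meis3 (1.51). Of the retinoic acid genes Crabp1 (3.49), Aldh1a2 (3.10), which makes retinoic acid, Crabp2 (2.35) and Stra6 (1.97) rose and Rarb fell (-1.25). In the posterior growth zone list 9 of 14 rose and 0 fell, with Evx1 at 4.68, Wnt8a at 4.02, Sp5 at 3.07 and T at 3.02. T and Sp5 thus rose in Wt1 and fell with IWP2, each against the same 129C1 arrays, while Hoxa2, Hoxa3 and Hoxb2 rose in both. Gbx2 rose (5.57) and Otx2 fell (-1.37) in Wt1. Cdx1 showed no called difference, at -0.23 in Wt1 (adjusted p 0.786) and -0.08 with IWP2 (adjusted p 0.964), and Cdx2 was above background on no array of either line. Cdx1 was measured in none of these groups, and 129C1 had a mean of -3.61 with 1 array above background. A fall of Cdx1 from 129C1 could therefore hardly be seen.

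**Figure D4:**
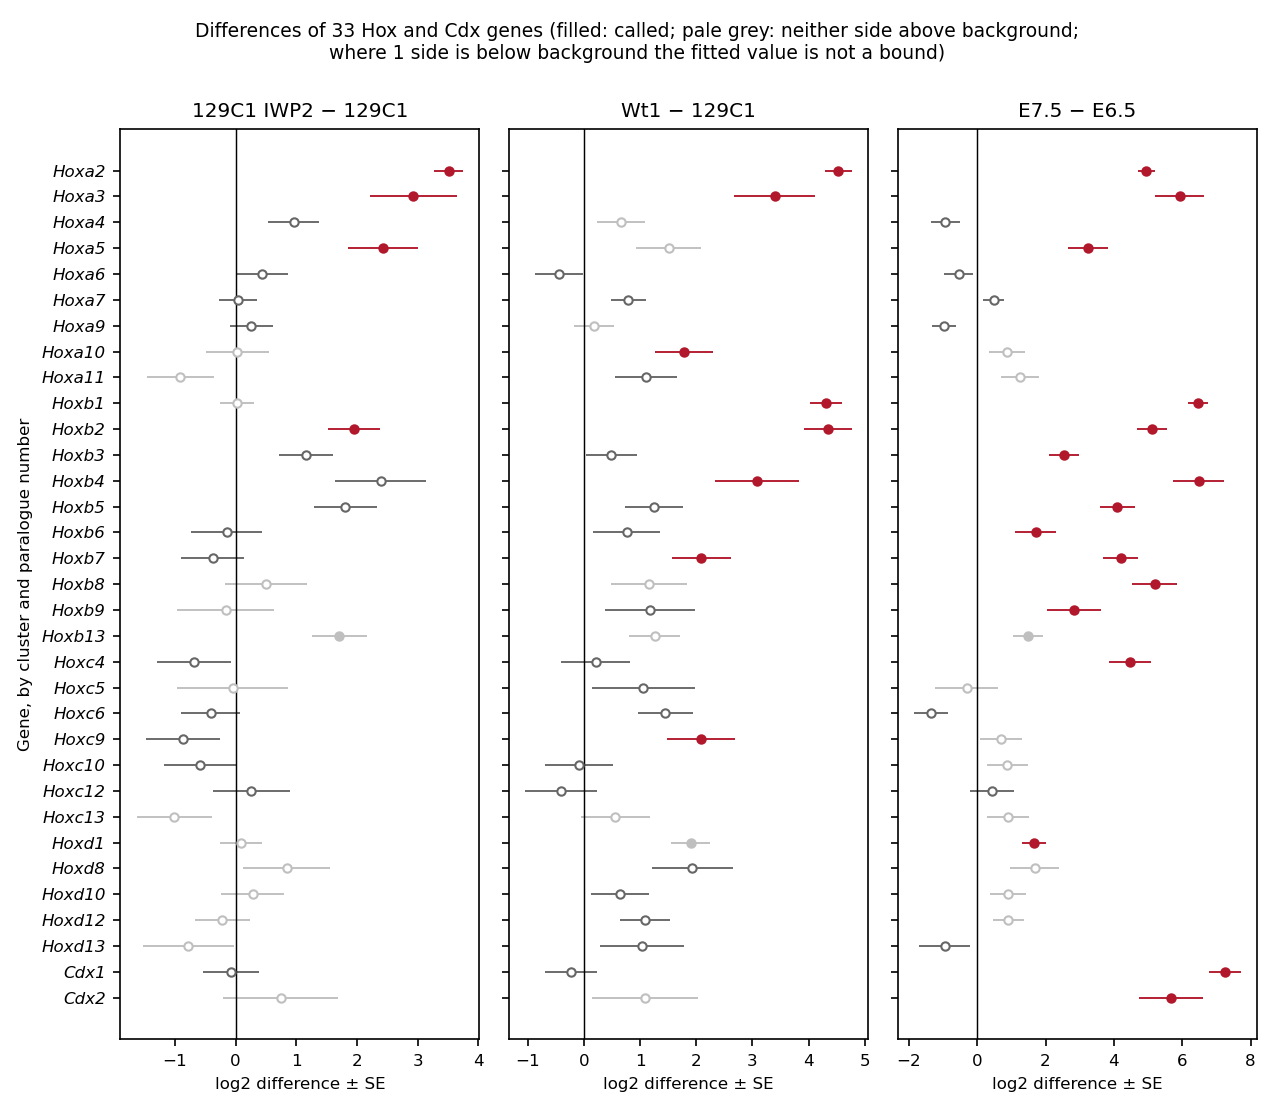
Log2 difference ± SE of 33 tested Hox and Cdx genes for 129C1 with IWP2 minus 129C1, Wt1 minus 129C1, and E7.5 ectoderm minus E6.5 epiblast, ordered by cluster and paralogue number; filled points are called genes, and colour is red for a called gene above background on at least 1 side and pale grey for a gene above background on neither. The first and middle panels share the 129C1 arrays. The panels hold 5, 9 and 17 filled points, 1 of them pale grey in each; Hoxa2, Hoxa3 and Hoxb2 are red in all 3 panels, and in the E7.5 panel 7 genes of paralogues 4 to 8, Cdx1 and Cdx2 are red too.

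Among the Wnt inhibitor lines, BNa17 was set against 129Ba1 and 129Ba2, all on 1 slide. Hoxb2 and Hoxb5 were higher in BNa17 and Hoxc9 was lower: 3 of 34 members rose and 3 fell, 17.6% in all, against 1.07% of all genes called higher, 1.9% called lower and 2.98% in all. With quantile normalization 2 rose and 4 fell, and with normexp background correction 4 rose and 0 fell. Hoxb2 was 1.71 and 1.02 in BNa17, against -0.67 and -0.64 in 129Ba1 and -0.65 and -0.68 in 129Ba2 (2.03 ± 0.38, adjusted p 0.00842). Hoxb5 was -0.67 and 0.09 in BNa17, against -2.25 and -2.39 in 129Ba1 and -2.21 and -2.74 in 129Ba2 (2.11 ± 0.45, adjusted p 0.0163). Both BNa17 arrays were above all 4 others for each gene. Hoxb1 (1.28) was called with no array above background on either side.

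Hoxc9, a trunk gene, was -3.11 and -4.67 in BNa17, with no array above background, against -1.09 and -1.39 in 129Ba1 and -1.76 and -2.46 in 129Ba2, which is at least 2.47-fold lower in BNa17 (adjusted p 0.0267). Hoxa11 was at least 1.59-fold lower (-1.76, adjusted p 0.0428) and its groups overlapped, and Hoxd12 was lower (-1.92, adjusted p 0.0126) with no bound. BNa17 replicate 1 was the dimmest array of the series, and without it Hoxb1, Hoxb2 and Hoxb5 were not called (adjusted p 0.116, 0.108 and 0.0583). Hoxc9 lost its call without replicate 1 of 129Ba1 (0.0832) or of 129Ba2 (0.0897) or BNa17 replicate 2 (0.0887), and Hoxa11 without any 1 array other than 129Ba2 replicate 2 (0.0658 to 0.134). With only the 6 arrays compared in the fit, 0 members were called in place of 6. Of the 16 fibroblast markers 5 fell in BNa17, with sums of 81.7 and 96.4 in BNa17, against 344 and 278 in 129Ba1 and 186 and 97.2 in 129Ba2, and their part in the lower Hox genes was not tested. Of the pathway lists, 0 of 9 cofactors, 0 of 25 Polycomb genes and 0 of 9 Trithorax genes changed, and Aldh1a2 fell (-1.42), as did Wnt5a (-1.81).

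J1 and R1, the untreated mESC lines, were the baseline for the 5 untreated EpiSC lines, to compare primed with naive pluripotent cells. The clearest difference was in Cdx1, a direct Wnt target in the gut and posterior embryo, which was measured in mESCs and not in EpiSCs. Its level on the 10 EpiSC arrays was -6.07 at the lowest, -4.00 at the median and -3.37 at the highest, with 3 arrays above background, against 1.36 and 0.81 in J1 and 1.14 and 1.24 in R1. No EpiSC array reached any mESC array, and the difference was -5.33 ± 0.40 (adjusted p 0.000141). Cdx2, known for its role in trophoblast as well as in the posterior embryo, was well above background on no EpiSC array, against -2.17 and -2.21 in J1 and -2.95 and -2.90, below background, in R1, which is at least 2.35-fold lower in EpiSCs (adjusted p 0.00191).

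In all 6 of 31 members were called, or 19.4%, 3 higher and 3 lower, against 12.9% of all genes called higher, 12.1% called lower and 25.1% in all, so Hox and Cdx genes were called no more often than other genes here. With quantile normalization, which moved the median of all genes to 0.10 in place of -0.01, 1 rose and 3 fell. Hoxb13, the last gene of its cluster, fell in EpiSCs (-2.26 ± 0.47, adjusted p 0.00992), with -5.67 at the lowest, -4.28 at the median and -3.49 at the highest of the 10 EpiSC arrays, against -1.99 and -2.14 in J1 and -2.54 and -2.52 in R1. Hoxc12, a posterior gene, was -2.76 at the lowest, -2.30 at the median and -1.28 at the highest of the 10 EpiSC arrays, all above background, against -4.24 and -4.53 in J1 and -3.21 and -3.51 in R1, at least 1.96-fold higher in EpiSCs (1.62 ± 0.29, adjusted p 0.0056). Hoxa4 (1.05, adjusted p 0.0434) and Hoxc10 (1.03, adjusted p 0.0393) were called with groups that overlapped and with no bound. Leaving out line J1 or line R1 took Hoxb13 out of the calls (0.0895 and 0.0523), as it did Hoxa4 (0.249 and 0.125) and Hoxc10 (0.238 and 0.115), and without J1 Cdx2 did not enter the test. Hoxa4 was also not called without line BNa17 (0.0543) or Wt1 (0.0662), without 1 array of 129C1, 129Ba2, BNa17, J1 or R1, or without either array of Wt1 or 129Ba1 (0.0516 to 0.159). Hoxc10 was also not called without line BNa17 (0.0528), Wt1 (0.0582) or 129C1 (0.0661), or without 1 array of Wt1, 129Ba2, BNa17, J1 or R1 (0.0541 to 0.152).

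Hoxa7 showed a difference of -0.05 (adjusted p 0.939) and Hoxc6 of 0.20 (adjusted p 0.812). Summed trophoblast markers were 1.06 to 7.19 on EpiSC arrays, against 12.8 and 10.3 in J1 and 21.5 and 24.1 in R1, and 3 of 8 tested were lower in EpiSCs, as Cdx2 was: Rhox6 (-9.12), Esx1 (-3.86) and Wnt7b (-2.25). Of the 12 listed, Elf5, Hand1, Plac1, Tpbpa and Prl3d1 were above background on no array of either mESC line, and the part of such cells in the Cdx2 result was not tested. EpiSC and mESC arrays lay on different slides and cannot be told apart from them. Of the 9 cofactors Pknox2 (2.58), Pbx3 (2.12), Meis3 (1.89) and Pbx4 (1.67) rose in EpiSCs, and of 24 Polycomb genes 2 rose, Cbx2 and Phc2, and 5 fell, with Eed at -2.15, Mtf2 at -1.70, Phf19 at -1.65 and Pcgf6 at -1.41.

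In J1, treatment with 2i was set against no treatment, and Hoxc13 was the member with the largest difference. Hoxc13, the last gene of its cluster, was -0.56 and -0.38 with 2i, against -3.05 and -3.84 without, where no array was above background. Both treated arrays stood above both untreated ones, a rise of at least 6.7-fold (2.97 ± 0.62, adjusted p 0.00326). In all 5 of 34 members were called, or 14.7%, 3 higher and 2 lower, against 6.04% of all genes called higher, 7% called lower and 13% in all, which is close to the share of all genes. With quantile normalization 1 rose and 4 fell. Hoxb13 was -0.80 and -0.78 with 2i, against -1.99 and -2.14 without (1.28, adjusted p 0.0464), and Hoxa6 rose at least 1.55-fold with 1 of 2 treated arrays above background (adjusted p 0.048). Hoxc6 was -2.27 and -2.07 with 2i, against -0.87 and -0.45 without (-1.51, adjusted p 0.0343), and Hoxa9 fell with no array above background on either side. With the mean of its probes Hoxa9 was not called.

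The calls of Hoxb13 and Hoxc6 were lost without any 1 of the 4 arrays (adjusted p 0.123 to 0.167 and 0.0761 to 0.17). That of Hoxa6 was lost without J1 replicate 2 (0.353) or either 2i replicate (0.0708 and 0.257), and that of Hoxa9 without J1 replicate 2 (0.101) or 2i replicate 1 (0.123). Cdx1 was 1.02 and 0.76 with 2i, against 1.36 and 0.81 without (-0.19, adjusted p 0.798), while 8 of 14 genes of the posterior growth zone list fell with 2i, with T at -5.80, Wnt8a at -4.53, Fgf8 at -3.85 and Wnt3 at -3.60, and Cyp26a1 fell by 6.06. The 2 groups lay on different slides and cannot be told apart from them.

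The embryo series followed epiblast from E5.5 to E6.5 and embryonic ectoderm at E7.5, the days over which gastrulation begins and the body axis is laid down. At E5.5 only Hoxa7 and Cdx1 were measured. From E5.5 to E6.5, 4 of 34 members rose and 1 fell, 14.7% in all, against 2.7% of all genes called higher, 2.16% called lower and 4.86% in all. With quantile normalization 3 rose and 0 fell. Cdx1 was -0.61 and -0.52 at E6.5, against -2.77 and -2.82 at E5.5, a rise of 2.23 ± 0.46 (adjusted p 0.00795). The stages did not overlap and shared a slide, but the call was lost without either E6.5 array (adjusted p 0.0522 and 0.0586).

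Hoxb2 rose at least 1.85-fold (1.67, adjusted p 0.0262) and Hoxa9 rose at least 1.66-fold (1.57, adjusted p 0.0126), and Hoxb7 was called lower with no array above background at either stage. The second Hoxa9 probe did not rise: it was at -4.09 and -4.24 at E5.5 and -4.59 and -5.27 at E6.5, below background at both stages. With the mean of both probes Hoxa9 was not called. The call of Hoxb7 was lost without any 1 of the 4 arrays (0.109 to 0.2). That of Hoxb2 was lost without E5.5 replicate 1 (0.223) or either E6.5 replicate (0.0542 and 0.215), and that of Hoxa9 without E5.5 replicate 2 (0.0732) or either E6.5 replicate (0.0502 and 0.112). Without E6.5 replicate 2 the count was 0, and the other arrays left out in turn gave 1 to 3 calls. Over the same interval 9 of 14 posterior growth zone genes rose, among them T (6.38), Sp5 (5.15), Wnt8a (3.71) and Wnt3 (3.20), and Fgf4 fell. Visceral endoderm markers, all 10 of which were measured at both stages, summed to 21.2 and 32.5 at E6.5, against 9.79 and 102 at E5.5, so E5.5 replicate 2 stood apart. Of the trophoblast list Hand1, Gata3 and Prl3d1 rose at E6.5, as 3 of 11 tested, and of 6 definitive endoderm markers Foxa2 and Gata6 rose. The part of these cell types in the Hox and Cdx results was not tested.

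Between E6.5 and E7.5 all tested low-numbered Hox genes rose, with many of the middle and few of the posterior ones. In E7.5 ectoderm 18 of 34 members rose, or 52.9%, and 0 fell, against 6.3% of all genes called higher, 8.56% called lower and 14.9% in all. With quantile normalization 17 rose and 1 fell. Paralogues 1 to 3 rose in 7 of 7 tested (median 5.12), paralogues 4 to 8 in 7 of 13 (median 1.71), paralogues 9 to 13 in 2 of 12 (median 0.89), and Cdx1 and Cdx2 both rose. The median of all genes was -0.07.

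Hoxb1 was -5.67 and -5.28 at E5.5, -5.74 and -4.98 at E6.5 and 0.74 and 1.45 at E7.5, at least 42.5-fold higher at E7.5 than at E6.5 (adjusted p 3.06e-09). Cdx1 was -2.77 and -2.82 at E5.5, -0.61 and -0.52 at E6.5 and 6.45 and 6.91 at E7.5, a last step of 7.25 ± 0.46 (adjusted p 1.14e-07). Both genes were far higher on both E7.5 arrays than on any earlier one, and Cdx1 was already above its E5.5 level at E6.5.

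Cdx2 was -2.28 and -5.70 at E5.5, -1.75 and -1.27 at E6.5 and 4.14 and 4.21 at E7.5 (last step 5.68 ± 0.94, adjusted p 0.000581). Of the other low-numbered genes, Hoxa3 rose at least 25.7-fold, Hoxa2 at least 7.43-fold, and Hoxb2 (5.12), Hoxb3 (2.54) and Hoxd1 (1.67) from levels already measured at E6.5. The second Hoxb3 probe was below background at E6.5 (-6.62 and -6.28) and above it on 1 of 2 arrays at E7.5 (-3.08 and -4.02). In the middle of the clusters, Hoxb4 rose at least 28.9-fold (0.44 and 0.64 at E7.5, against -6.53 and -5.34 at E6.5), Hoxb8 at least 8.27-fold (-1.10 and -1.42, against -6.61 and -6.29), Hoxc4 at least 6.6-fold, Hoxb7 at least 4.88-fold, Hoxb5 at least 3.66-fold and Hoxa5 at least 2.07-fold with 1 of 2 E7.5 arrays above background. Hoxb8 was measured in no other group. Hoxb6 (1.71, adjusted p 0.0439) and Hoxb9 (at least 3.66-fold, adjusted p 0.0174) lost their calls without any 1 of the 4 arrays (0.056 to 0.25 and 0.0561 to 0.102), and Hoxb13 was above background at neither stage.

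By cluster, the E7.5 ectoderm measured 9 of 10 Hoxb genes, against 4 of 11 Hoxa, 1 of 9 Hoxc and 1 of 9 Hoxd genes. Hoxa7, the gene measured everywhere, was -3.21 and -2.79 at E5.5, -3.01 and -2.81 at E6.5 and -2.72 and -2.13 at E7.5, with a last step of 0.48 (adjusted p 0.267). Its 6 embryo values all lay below its 18 cell line values, which ran from -1.89 to 0.05. Hoxc6 had no array above background at E7.5, against 1 of 2 at E6.5, and its difference of -1.35 did not pass (adjusted p 0.053).

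At E7.5 the Hox cofactors Pknox2 (4.59), Meis2 (4.40) and Meis1 (3.73) rose. Of the retinoic acid genes 6 of 17 rose, with the receptor Rarb at 4.74, the synthetic enzyme Aldh1a2 at 3.95, Crabp2 at 3.35 and Stra6 at 1.68, and 0 fell. Gbx2 rose (6.74), the posterior genes Nkx1-2 (3.86) and Wnt8a (2.64) rose, and Fgf8 (-3.38) and Wnt3 (-2.75) fell. All 10 visceral endoderm markers fell, with sums of 1.66 and 2.42 at E7.5, against 21.2 and 32.5 at E6.5, and all 6 definitive endoderm markers tested fell, with sums of 2.29 and 3.24 at E7.5, against 20.1 and 25.8 at E6.5. Of 16 fibroblast markers 7 rose and 1 fell, with sums of 8.21 and 7.78 at E7.5, against 4.32 and 4.08 at E6.5. Of 11 trophoblast markers tested 3 rose (Hand1, Gata3 and Sct) and 5 fell, Elf5 among them, with sums of 7.39 and 4.62 at E7.5, against 3.60 and 6.10 at E6.5. The part of these cell types in the Hox and Cdx results was not tested. The stages also differ in the tissue the labels name and lay on different slides, so stage, tissue and slide cannot be told apart.

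The 5 untreated EpiSC lines were last set against the E7.5 ectoderm, the stage with the most Hox genes measured in the embryo. Cdx1, Cdx2 and some low-numbered Hox genes, such as Hoxb1 and Hoxd1, were lower in EpiSCs, and several genes of the middle and posterior Hoxa and Hoxc clusters were higher: 7 of 32 members fell and 8 rose, 46.9% in all, against 6.15% of all genes called lower, 11.4% called higher and 17.6% in all. With normexp 6 fell and 1 rose. Cdx1 differed by -10.88 ± 0.36 (adjusted p 1.43e-06) and Cdx2 was at least 249-fold lower in EpiSCs (adjusted p 5.88e-05). Hoxb1 differed by -5.63 ± 1.05 (adjusted p 0.00435), Hoxb8 by -3.36, Hoxd1 by at least 3.14-fold and Hoxb3 by -2.58. None of these had overlapping values. The Hoxb3 difference rests on 1 of its 2 probes: the second was at -3.08 and -4.02 at E7.5, within the range of the EpiSC arrays, which ran up to -0.90 in BNa17, and the mean of both probes gave -1.04 (adjusted p 0.242). Of the trophoblast markers Hand1, Gata3 and Plac1 were also lower in EpiSCs, as 3 of 9 tested, and their part in the Cdx2 result was not tested.

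Hoxc6, a trunk gene, was the clearest in the other direction. Its levels were -1.18 and -0.88 in BNa17, 1.03 and 0.84 in 129Ba1, 0.55 and -0.91 in 129Ba2, -0.12 and 0.52 in Wt1 and -1.26 and -1.23 in 129C1, against -5.72 and -5.43 at E7.5. Every EpiSC array was above background and no E7.5 array was, a difference of at least 11.3-fold (5.31 ± 0.60, adjusted p 0.000381). Hoxc12 (at least 2.86-fold), Hoxc9 (at least 2.3-fold), Hoxa11 (at least 1.68-fold), Hoxc10 (at least 1.15-fold), Hoxa6 (at least 1.14-fold), Hoxa7 (1.61) and Hoxd10 (1.46, with no bound) were also higher. Without E7.5 replicate 1, Hoxa7 (0.119), Hoxa11 (0.163), Hoxc9 (0.125), Hoxc10 (0.0505), Hoxc12 (0.192) and Hoxd10 (0.102) were not called, and without E7.5 replicate 2, Hoxa6 (0.191), Hoxa11 (0.184), Hoxc9 (0.091) and Hoxd10 (0.0543) were not. Hoxc9 was also lost without 129C1 replicate 1 (0.0674), and Hoxa11 without any 1 of 5 single EpiSC arrays (0.051 to 0.0814) and without line 129Ba2 (0.0582) or Wt1 (0.0635).

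Fibroblast markers moved with the higher genes: 12 of 16 were higher in EpiSCs, with sums of 57.1 to 344 on EpiSC arrays, against 8.21 and 7.78 at E7.5, and their part in these results was not tested. Of the lower genes, Cdx2 and Hoxd1 were above background on no EpiSC array. Hoxa2 (-0.90, adjusted p 0.562), Hoxa3 (-1.97, adjusted p 0.209), Hoxb2 (-2.63, adjusted p 0.109) and Hoxb4 (-1.81, adjusted p 0.29) did not pass, the EpiSC lines themselves spreading widely in these genes. Of 14 posterior growth zone genes 8 fell in EpiSCs, with Evx1 at -7.03, Sp5 at -6.62, T at -5.59 and Wnt8a at -5.54, and Fgf17 and Fgf4 rose. EpiSC and E7.5 arrays lay on different slides and cannot be told apart from them.

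The 8 members measured in no group were Hoxa13, Hoxc8, Hoxc11, Hoxd3, Hoxd4, Hoxd9, Hoxd11 and Cdx4. Hoxc8, Hoxc11 and Hoxd9 were above background on no array at all. Cdx4, a posterior gene, was above background on 1 array, of E7.5, at -2.57, with -3.67 on the other. Hoxa10, Hoxa11, Hoxd12, Hoxc5, Hoxc10, Hoxd8 and Hoxd10 were measured in 129Ba1 and no other group, and Hoxd13 in 129Ba1 (-0.86 and -1.14) and at E6.5 (-2.97 and -3.81). For the 4 members with 2 probes, the probe that was not used can differ. The second Hoxb3 probe was measured in BNa17, 129Ba1, 129Ba2 and Wt1. It was not measured at E6.5, at E7.5 or in 129C1 with IWP2, where the first was. The second Hoxa13 probe was measured in 129Ba1, at -2.97 and -3.59. The second Hoxa9 probe was not above background at E6.5, where the first was.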

How the data were processed

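RNA was measured on 24 single-colour Agilent arrays, 2 for each of 12 groups. Scans were read with Feature Extraction 10.5.1.1, per the submitters' processing notes. The authors deposited a scanner file for each array, in which the processed signal is a linear intensity, per the file headers, and a deposited table of log2 values, whose columns matched their own arrays at r of at least 0.99999 and other arrays at r of at most 0.796. Each array held 62976 spots, 3671 of them controls, and 55681 probes, of which 27235 had an accession in the RefSeq table and named 20660 genes. Outlier features were left out, which touched 168 probes, and 0 values were saturated. Each array's 75th percentile was subtracted from its log2 processed signals. A gene was represented by its probe of highest mean level without an excluded value, which left 20616 genes, and it entered a fit when 1 or more of the groups fitted had both arrays well above background. Array number and brightness limit the precision.

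Tests used limma 3.58.1 in R 4.3.3 (with the package data.table, version 1.17.8) over all genes, two-sided, with a call needing a change of 2-fold or more and an adjusted p (Benjamini-Hochberg) below 0.05. Comparisons of EpiSC lines as a class used line means, and all others used 12 groups of arrays. On simulated data for each comparison, 91% to 98% of 100 genes changed by 3 on the log2 scale were recovered and 40% to 84% of 100 changed by 1.5. For the comparisons on line means, the simulated spread between lines was capped at that of the median gene. Those shares therefore do not cover genes whose lines spread more widely. Replicate numbers were not taken to pair the samples. Over 66 pairs of groups and 10130 genes, correlations of same-numbered deviations ran from -0.344 to 0.423, and 17 were above 0.1. This does not settle whether some groups were paired.

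Every member entered the counts, and some genes that the counts hold are not reported here by name. From the other lists up to 4 called genes of largest difference are named in a comparison, with Otx2, Gbx2, T, Wnt3a, Cyp26a1, Aldh1a2 and Meis1 given always. Members and lists were chosen with earlier results of these data known. Motifs were sought in RefSeq promoters of build GRCm38.p6. The files hold no mean signal, so the normexp alternative used the median signals with an offset of 50, a choice made after seeing the files. Alternatives covered background, scaling, filters, probes, variance, replicate unit, slide and replicate blocks, and left-out arrays and lines.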

Additional observations from a re-analysis of the deposited data

Results flagged for a closer look

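Hoxa2 in line 129C1 stood apart from the 4 other untreated EpiSC lines. Its line mean was -5.76, below background on both arrays, while the nearest other line was at -2.12 and the farthest at -0.89, so that the gap made up 0.746 of the whole range, above the critical value of 0.71 for 5 values. Of 28 members tested in this way 1 stood out, and chance alone gives about 5%.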

How the results depend on the processing

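Of 71 called gene results, 25 stayed called under every alternative run for them, and over 1357 alternatives 1148 kept the call, 208 lost it with the same direction and 1 reversed: Hoxd12 in BNa17 against 129Ba1 and 129Ba2 went to 0.15 with normexp. The call count of 0 for Wnt inhibitor against original-protocol lines became 11 with arrays as replicates, 11 with a replicate block, 11 with slide as a random block, 3 with line as a random block (Hoxa5, Hoxb4 and Hoxb5) and 14 within 1 slide against 129C1, and was 0 to 2 with an array or line left out. With normexp the counts were 1 for IWP2 (none of the genes named as called there), 6 for Wt1, 1 for EpiSC against mESC (Cdx1), 1 for 2i (Hoxc13), 1 for E6.5 (Cdx1) and 7 for EpiSC against E7.5. EpiSC against mESC gave 3 with the stricter filter (Cdx1, Hoxb13 and Hoxc12) and 16 with arrays as replicates, 16 with a replicate block and 16 with slide as a random block. For 2i the count was 2 without a filter (Hoxa9 and Hoxc13), 3 with the stricter filter (Hoxb13, Hoxc6 and Hoxc13) and 3 with trend and robust variance (Hoxa9, Hoxc6 and Hoxc13). For E6.5 against E5.5 it was 3 with quantile normalization (Cdx1 and Hoxb2 among them), without a filter or with the stricter one (Cdx1, Hoxa9 and Hoxb2 in both), with the mean of probes (Cdx1, Hoxb2 and Hoxb7) or with only the arrays compared (Cdx1, Hoxa9 and Hoxd1). BNa17 gave 0 with only the arrays compared, and EpiSC against E7.5 gave 9 with line as a random block; the causes of these changes were not tested. Leaving out an array or line gave 2 to 6 calls for IWP2, 6 to 15 for Wt1, 3 to 10 for BNa17, 3 to 9 for EpiSC against mESC, 1 to 5 for 2i, 0 to 3 for E6.5, 15 to 17 for E7.5 against E6.5 and 9 to 16 for EpiSC against E7.5; the lowest counts came without IWP2 replicate 1 (2), 129C1 replicate 2 (6, for Wt1), BNa17 replicate 1 (3), line R1 (3), J1 replicate 2 or 2i replicate 1 (1 each), E6.5 replicate 2 (0) and E7.5 replicate 1 (9, for EpiSC against E7.5). An arm left with 1 array was assumed to vary like the other groups. The replicate numbers were not taken to pair the samples, and the replicate block gave 6, 10, 6, 4, 4 and 17 calls for IWP2, Wt1, BNa17, 2i, E6.5 and E7.5, against 6, 10, 6, 5, 5 and 18 without it. In the comparisons made on line means the block was fitted on single arrays, and its counts equal those of arrays as replicates with no block: 11 for the Wnt inhibitor lines, 16 for EpiSC against mESC and 21 for EpiSC against E7.5, where line means gave 15. Signal over background limits the members, of which 8 of 42 were measured in no group.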

Other observations

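Of 15 noncoding RNAs of the Hox clusters, 2 were on the array and 1 was tested, Hoxa11os, which is read from the strand opposite Hoxa11. It was above background on all 10 arrays of the untreated EpiSC lines and on 0 of 2 at E7.5, with a difference of 4.13 (adjusted p 0.000153), and it fell by 1.86 at E7.5 relative to E6.5, where both arrays were above background. Gsx1, a ParaHox gene related to the Hox genes, was measured at E7.5 and on no EpiSC array, and rose by 3.45 at E7.5 relative to E6.5 (adjusted p 0.000172). Of 25 Polycomb genes, 4 rose between E6.5 and E7.5, among them Bmi1 (1.34), Phc3 (1.31) and Phf19 (1.15), and 0 fell.

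Wnt3a was well above background on 1 array, of E7.5. Otx2 ran from 3.17 to 6.58 over the 24 arrays. Gbx2 was well above background on no array of untreated 129C1 and on both arrays of every other group. Replicate arrays disagreed for Hoxc5 in R1 (0.46 and -3.71) and for Hoxd4 in 129Ba2 (-5.56 and -1.59).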
